A study of Mus musculus with 778 samples.

Results

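The initiation and elongation factors of protein synthesis were followed through 5 stages of mouse oocyte growth in single-cell RNA-seq data. Members were the 64 genes whose symbols start with Eif and a digit from 1 to 6, Eef1 or Eef2, of 23201 genes in the table. The proteins Eif4e1b and Eif4enif1, which bind eIF4E or resemble it, were left out by the rule. The study collected oocytes from female ICR mice, an outbred strain, and sorted them by diameter to follow how the transcriptome changes while the oocyte grows. Single oocytes were counted from 4 libraries of UMI-tagged cDNA. NGO were non-growing oocytes under 20 µm from mice of 3 to 4 days (46 cells). GO1 (30 to 45 µm, 51 cells), GO2 (50 to 55 µm, 26 cells) and GO3 (60 to 65 µm, 44 cells) were growing oocytes, and FGO were fully grown oocytes over 70 µm (56 cells), all from mice of 3 to 4 weeks. Every comparison with NGO is therefore also one of mouse age, and the effect of growth and that of age cannot be told apart. No oocyte carried a transgene, deletion or treatment by the labels.

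Initiation begins when eIF2, bound to GTP and the initiator tRNA, joins the small ribosomal subunit with eIF1, eIF1A, eIF5 and the large scaffold eIF3. The cap-binding complex eIF4F, made of eIF4E, eIF4G and the helicase eIF4A, brings the mRNA, and eIF5B then helps the large subunit to join, after which eEF1A and eEF2 drive elongation. 4E-binding proteins hold eIF4E away from eIF4G, and kinases that phosphorylate eIF2 or eEF2 slow initiation or elongation. A growing oocyte stores mRNA and ribosomes for the embryo, so the balance between making and withholding protein has long been studied in this cell.

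The level of a gene is given in CPM, the UMIs of the gene per 1000000 UMIs of all genes, summed over the cells of a stage. Where a level in NGO is followed by 4 values in the successive stages, these are GO1, GO2, GO3 and FGO in that order. CPM is a share of the transcripts counted and not an amount per oocyte. The 5 stage sums held 24976634 to 64311908 UMIs. Each stage was 1 pooled sample, because the cells could not be assigned to libraries, so no comparison has a replicate check, no p-value was computed, and the 95% intervals below (exact Poisson for levels, exact binomial for ratios) cover counting error only. The GO1 sum rested on few cells, since 6 of its 51 oocytes had over 2000000 UMIs and held 70.9% of all GO1 UMIs. The corresponding share was 36.7% in GO2 (4 cells), 32.8% in GO3 (6 cells), 53.1% in FGO (11 cells) and 0% in NGO. Levels without the 10 deepest cells of each stage are therefore given for each member that changed 2-fold or more into or out of GO1. Sums over the genes of a role, ratios of 2 genes and the list of related genes rest on the full stage sums unless a mean over cells is named. All 11 oocyte markers checked, among them the zona pellucida genes and Gdf9, had at least 10 CPM in every stage. The summed level of 8 granulosa cell markers was 14.3 CPM in NGO, then 38.4, 30.3, 28.2 and 16.7 CPM in the successive stages. Of these, Cyp19a1 had 1.11 CPM in NGO and 16.3 in GO1 and Nr5a2 6.91 and 14.5, the 2 markers that reached 10 CPM in a stage, while Amh and Foxl2 reached at most 0.112 and 0.233 CPM. The part of granulosa cell RNA in the results was not tested. Markers of stroma and theca (6 genes) summed to 0.462 to 6.91 CPM, those of blood and immune cells (5 genes) to 1.57 to 4.60 CPM, and both haemoglobin genes were at 0 in all stages.

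Most of the members that changed did so between NGO and GO1. Transcripts of Eif4ebp1, which encodes the inhibitor of eIF4E, fell from 249 to 4.30 CPM, and those of Eef1a1, Eef2, Eif4a1 and Eif5a fell by factors between 2.44 and 2.76. Transcripts of Eif4e3, Eif5b and Eif2s2 rose by factors between 2.31 and 3.99. Rose and fell are used below only where 2 stages differed by a factor of 2 or more and the larger of the levels was 10 CPM or above. Of the 64 members, 55 reached 10 CPM in at least 1 stage. From NGO to GO1, 5 of 55 members rose, against 20.6% of all genes tested, and 14 fell, against 25.7% of all genes. As shares of the members these were 9.09% and 25.5%, so the share that fell was near that of all genes and the share that rose was below it. The median log2 difference was -0.40 for the members and -0.15 for all genes, and 42 of 55 members (76.4%) lay below 0, against 54.3% of all genes. That number depended on the scaling. It was 34 when the sums were scaled with DESeq2 factors and 32 with TMM factors. The medians were then -0.30 and -0.24 for the members and -0.04 and 0.01 for all genes. Without the 10 deepest cells of each stage, 24 of 55 members passed the same limits. Of these, 5 rose (all genes, 21.6%) and 19 fell (all genes, 37.6%). Of the 19 members past the limits in the full sums, 18 were among them in the same direction.

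After GO1, few members passed the limits in the stage sums. From GO1 to GO2, 0 of 51 rose (all genes, 0.109%) and 1 fell (all genes, 3.03%). These counts changed with the weighting of the cells. Without the 10 deepest cells 4 rose (all genes, 9.43%) and 3 fell (all genes, 8.24%). By the mean over cells 2 rose (all genes, 4.16%) and 6 fell (all genes, 12.3%). From GO2 to GO3, 2 of 52 rose (all genes, 3.34%) and 0 fell (all genes, 1.01%). From GO3 to FGO, 1 of 54 rose (all genes, 2.41%) and 0 fell (all genes, 3.54%). The ends of growth, NGO and FGO, differed by 3 members that rose (all genes, 11.3%) and 8 that fell (all genes, 16%) of 55 tested. As shares of the members these were 5.45% that rose and 14.5% that fell, so the share that rose was below that of all genes and the share that fell was near it. With TMM factors 4 members rose and 6 fell, of all genes 15.2% and 11.5%. By the mean over cells 12 members fell (all genes, 20.0%). The median log2 difference was -0.42 for members and -0.12 for all genes. NGO was the stage of the highest level for 37 of the 55 members, GO2 for 8, GO1 for 6, and GO3 and FGO for 2 each. The same count was not made for all genes, so it is not read as a trait of the members. The summed level of all 64 members was 16190 CPM in NGO, then 13960, 13476, 13011 and 12985 CPM in the successive stages. By the mean over cells that sum was 16192 CPM in NGO, then 15531, 13722.5, 13123 and 12705 CPM in the successive stages. The GO1 value was thus nearer to NGO per cell than in the stage sums. Around these means the SD between cells was 951 CPM in NGO (n = 46 cells), 1777 in GO1 (n = 51), 1125 in GO2 (n = 26), 656 in GO3 (n = 44) and 814 in FGO (n = 56). These genes thus took 1.62% of all UMIs in NGO and 1.30% in FGO.

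**Figure D1:**
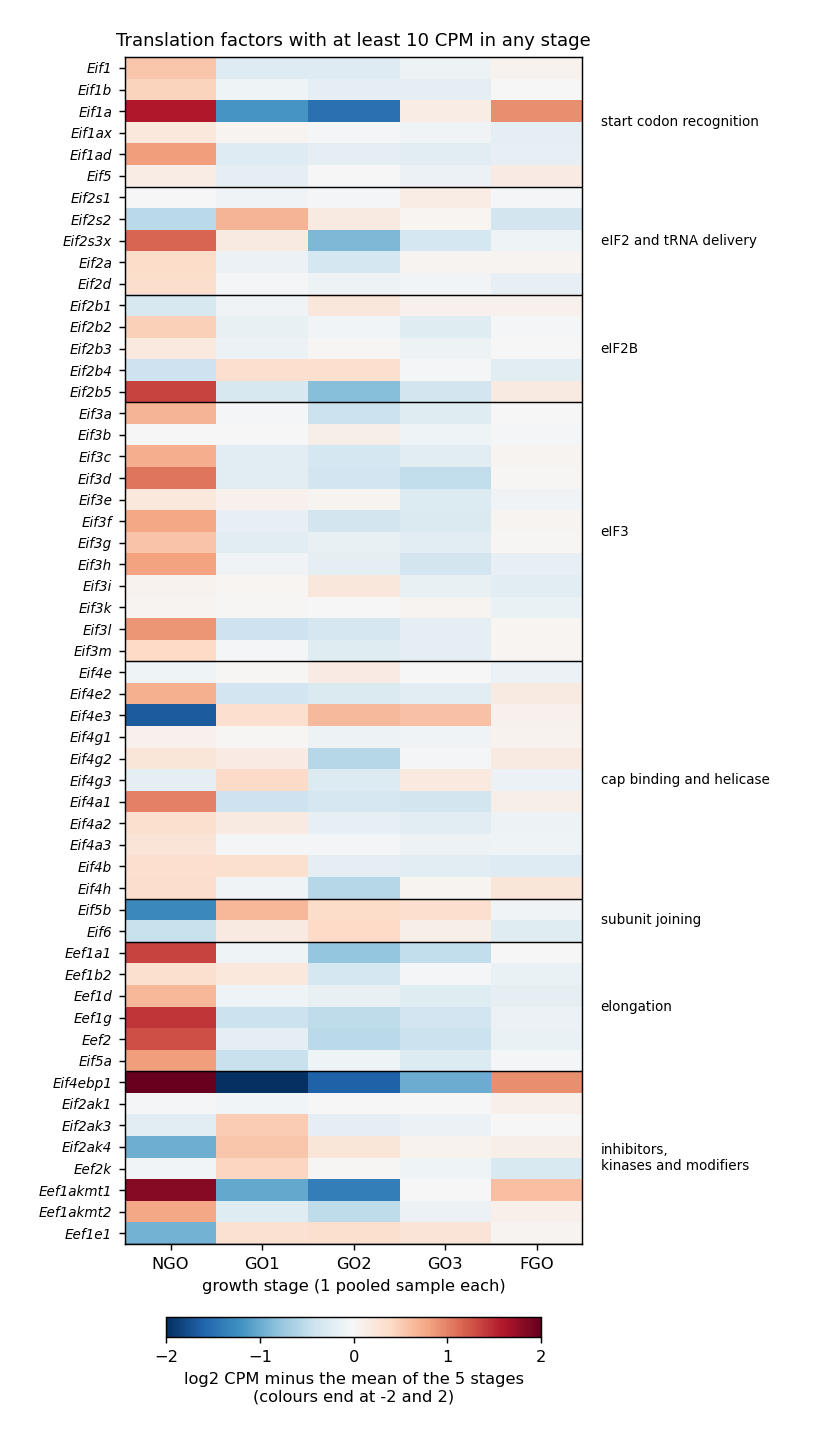
Level of the 55 translation factor genes that reached 10 CPM, as log2 CPM of the stage sum minus the mean over the 5 stages (red above, blue below), ordered by role. The NGO column is the most coloured one, with Eif4ebp1, Eef1akmt1 and Eif1a high and Eif4e3 and Eif5b low. NGO is the highest stage for 37 of the 55 genes, a count not made for all genes.

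Promoter windows of the members were searched for CACGTG, the E-box bound by Myc and Max, because Myc is known to drive many translation factor genes. Windows ran from 250 bases before to 50 after the start of each gene (RefSeq, build GRCm38.p6) and were found for 50 members. The motif reads the same on both strands. It stood in 12 of the 50 windows (24%), against 8.09% of 27025 genes with a window and 12.2% of the 6901 genes that had a window and reached 10 CPM in a stage. Of the members with a window that reached 10 CPM, 11 of 43 (25.6%) held it. Members that fell from NGO to GO1 held it in 3 of 10 windows, those that rose in 0 of 4, and those within 2-fold in 8 of 29. The motif was thus found at about the same share in members that fell and in members that stayed within 2-fold. All sites in the windows of the 3 genes that fell, and of Eif4e, which stayed within 2-fold, are shown 5′ to 3′ on the strand of the gene, with the motif in capitals.
Eef2 (chr10:81176576-81176605, plus strand, 43 bases before the start): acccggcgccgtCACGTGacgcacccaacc
Eif4a1 (chr11:69672595-69672624, minus strand, 189 bases before the start): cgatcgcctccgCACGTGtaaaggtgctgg
Eif5a (chr11:69921443-69921472, minus strand, 74 bases before the nearest start): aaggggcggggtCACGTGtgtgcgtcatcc
Eif5a, another start (chr11:69920791-69920820, minus strand, 178 bases before that start): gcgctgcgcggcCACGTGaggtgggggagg
Eif4e (chr3:138527192-138527221, plus strand, 64 bases before the start): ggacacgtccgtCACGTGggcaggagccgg
Eif4e, farther site (chr3:138527028-138527057, plus strand, 228 bases before the start): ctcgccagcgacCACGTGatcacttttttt

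The factors of start codon recognition were all 6 at or above 10 CPM. From NGO to GO1, 2 of them fell, against 25.7% of all genes. Eif1, which keeps the scanning ribosome open until it meets a start codon, had 1279.8 CPM in NGO, then 729, 734, 815 and 913 CPM in the successive stages. Its close copy Eif1b had 761 CPM in NGO, then 528, 496, 490.3 and 564 CPM in the successive stages. Both stayed within 2-fold between the stage sums, though Eif1 had 1376 CPM in NGO and 644 in GO1 by the mean over cells. Eif5, which makes eIF2 hydrolyse its GTP, had 924 CPM in NGO, then 731, 838, 774 and 934 CPM in the successive stages, the highest level of this gene being in FGO. Eif1a encodes the autosomal form of eIF1A, a scanning factor, and had 48.8 CPM in NGO, then 7.14, 5.73, 17.8 and 30.6 CPM in the successive stages. Single NGO oocytes ranged from 0 to 99.6 CPM (median 51.1) and GO1 oocytes from 0 to 57.004 CPM (median 0). The ranges overlapped from 0 to above the NGO median, although most GO1 oocytes lay below most NGO oocytes. Eif1a fell 6.84-fold (interval 5.87 to 8.01) into GO1, and rose 3.11-fold (interval 2.60 to 3.73) from GO2 to GO3. Leaving out the 10 deepest cells gave levels of 50.4 CPM in NGO and 5.16 in GO1. The X-linked Eif1ax, the other eIF1A gene, had 568 CPM in NGO, then 505, 482, 465 and 431 CPM in the successive stages and stayed within 2-fold throughout. The ratio of Eif1ax to Eif1a UMIs was accordingly 11.6 in NGO, then 70.7, 84.2, 26.1 and 14.1 in the successive stages. The ratio followed Eif1a, since Eif1ax differed little between stages. Eif1ad, a protein with an eIF1A-like domain, had 44.3 CPM in NGO, then 20.7, 21.5, 21.3 and 22.2 CPM in the successive stages and fell 2.14-fold (interval 1.93 to 2.37) into GO1, a call that was lost when the sums were scaled with DESeq2 or TMM factors.

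The 3 subunits of eIF2 took different courses. Eif2s1, the alpha subunit that carries the regulatory phosphorylation site, had 146.9 CPM in NGO, then 140.1, 144.7, 162.8 and 142.99 CPM in the successive stages and stayed within 2-fold, although the shallower GO1 oocytes had 66.5 CPM and the deeper 144.6 CPM. Eif2s2, the beta subunit (chr2:154697146-154718671 on the minus strand of NCBIM37), had 729 CPM in NGO, then 1686, 1195, 1084 and 823 CPM in the successive stages. Its level in single cells ran from 482 to 1073 CPM (median 737) in NGO and from 900.1 to 8349 CPM (median 3669) in GO1. The 46 NGO and 51 GO1 oocytes overlapped only in a narrow zone at the top of NGO and the bottom of GO1. Eif2s2 rose 2.31-fold (interval 2.27 to 2.35) into GO1, and its level in NGO and FGO was within 2-fold. In GO1 this gene moved with sequencing depth. The 25 shallower GO1 oocytes together had 4586 CPM and the 25 deeper ones 1511 CPM, at median depths of 49506 and 353699 UMIs. Without the 10 deepest cells the level was 718 CPM in NGO and 3466 in GO1, and the part of depth in the result was not tested. Eif2s3x, the X-linked gamma subunit that holds GTP and the tRNA, had 46.2 CPM in NGO, then 23.4, 11.01, 16.1 and 19.5 CPM in the successive stages. Its level in single cells ranged from 7.63 to 80.7 CPM (median 43.8) in NGO, from 0 to 187.02 CPM (median 23.7) in GO1 and from 0 to 21.8 CPM (median 10.5) in GO2, with overlap among all stages. It fell 2.12-fold (interval 1.84 to 2.45) from GO1 to GO2, which was lost with DESeq2 or TMM factors, and was 2.37-fold lower (interval 2.19 to 2.57) in FGO than in NGO. Its Y-linked copy Eif2s3y had at most 1 UMI in any stage of these female mice. The ratio of Eif2s2 to Eif2s1 UMIs was 4.97 in NGO, then 12.04, 8.26, 6.66 and 5.75 in the successive stages. Thus the beta to alpha ratio was highest in GO1 and lowest in NGO. UMI counts were not scaled by gene length, so these ratios are compared between stages and not read as amounts of one subunit against another. Eif2a and Eif2d, which can bring initiator tRNA without eIF2, had 37.5 and 105.05 CPM in NGO and 30.2 and 72.9 CPM in FGO, both within 2-fold. Eif2d, however, had 112.5 CPM in NGO and 29.8 in GO1 when the 10 deepest cells were left out.

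eIF2B recharges eIF2 with GTP and has 5 subunits, of which 1 fell from NGO to GO1, against 25.7% of all genes. Eif2b1 had 439 CPM in NGO, then 519, 639.8, 580.2 and 578 CPM in the successive stages, and Eif2b4 had 174.3 CPM in NGO, then 294, 295, 227 and 197.8 CPM in the successive stages. Eif2b2 had 89.2 CPM in NGO, then 58.01, 61.3, 54.4 and 62.1 CPM in the successive stages, and Eif2b3 had 115.4 CPM in NGO, then 93.6, 102.98, 94.03 and 101.5 CPM in the successive stages. These 4 stayed within 2-fold between the stage sums. The catalytic subunit Eif2b5 had 27.1 CPM in NGO, then 8.52, 5.85, 8.17 and 12.1 CPM in the successive stages. Across cells it ranged from 0 to 64.1 CPM (median 24.9) in NGO and from 0 to 35.05 CPM (median 0) in GO1. Its level was low in every stage after NGO, and the ranges overlapped, as some NGO oocytes had no UMI of it. Eif2b5 fell 3.18-fold (interval 2.73 to 3.71) into GO1 and was 2.25-fold lower (interval 2.03 to 2.50) in FGO than in NGO, the latter being lost with TMM factors (23.9 and 12.001 CPM). The summed level of the 5 subunits did not follow Eif2b5 in the stage sums, with 845 CPM in NGO, then 972, 1105, 964 and 951 CPM in the successive stages. By the mean over cells it was 822 CPM in NGO, then 721, 1081, 941 and 904 CPM in the successive stages. The direction from NGO to GO1 was thus reversed by that mean, and was then the same as for Eif2b5. Leaving out the 10 deepest cells changed the picture for Eif2b2, which then had 93.8 CPM in NGO and 27.3 in GO1.

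eIF3 is the largest initiation factor, and 12 of its 14 listed genes were at or above 10 CPM. From NGO to GO1, 2 of the 12 fell, 0 rose and 11 had a log2 difference below 0, with a median of -0.75. Of all genes tested, 25.7% fell, 20.6% rose and 54.3% lay below 0, with a median of -0.15. Without the 10 deepest cells 5 of the 12 fell, against 37.6% of all genes. Eif3b, Eif3f and Eif3g were then among them, from 41.01 to 14.7, 94.2 to 40.3 and 511 to 204 CPM. The number below 0 was 9 with DESeq2 factors and 8 with TMM factors, because Eif3b, Eif3e, Eif3i and Eif3k lay close to 0. Eif3d, a subunit that can itself bind the mRNA cap, had 193.2 CPM in NGO, then 78.2, 70.03, 65.2 and 93.6 CPM in the successive stages and fell 2.47-fold (interval 2.35 to 2.60) into GO1, and it was 2.06-fold lower (interval 1.99 to 2.14) in FGO than in NGO. The latter was lost with DESeq2 factors (177.2 and 90.9 CPM), TMM factors and cells thinned to 20000 UMIs. The accessory subunit Eif3l had 289.7 CPM in NGO, then 117.1, 123.9, 138.2 and 161.7 CPM in the successive stages and fell 2.47-fold (interval 2.37 to 2.58). Its NGO and FGO sums were within 2-fold, but not without the 10 deepest cells (287 and 137.3 CPM). In single cells Eif3l ranged from 136.2 to 486 CPM (median 293) in NGO and from 0 to 190.5 CPM (median 65.6) in GO1, and Eif3d from 71.97 to 290.3 CPM (median 187.6) and from 0 to 207 CPM (median 51.4). The median GO1 oocyte lay under every NGO oocyte for both genes. The overlap stayed below the NGO median for Eif3l, while the highest GO1 oocyte passed that median for Eif3d. Among the core subunits, Eif3a had 125.01 CPM in NGO, then 76.7, 57.8, 65.7 and 78.4 CPM in the successive stages. Eif3c had 630.2 CPM in NGO, then 327, 298, 324 and 396 CPM in the successive stages, while Eif3b had 43.4 CPM in NGO, then 43.7, 47.2, 40.8 and 42.3 CPM in the successive stages. Eif3b differed little between the sums and yet differed within GO1, at 12.9 CPM in the shallower and 45.6 CPM in the deeper oocytes. Eif3g, which acts in scanning, had 489 CPM in NGO, then 283, 297, 279 and 332 CPM in the successive stages, and Eif3f and Eif3h, the subunits with an MPN domain, had 92.7 and 175.1 CPM in NGO and 48.6 and 95.3 CPM in GO1. Eif3e, Eif3i, Eif3k and Eif3m had 120.9, 102.5, 483 and 98.1 CPM in NGO and 111.1, 100.3, 474 and 72.6 CPM in GO1. Summed over the complex, the level was 2843 CPM in NGO, then 1827, 1781, 1762 and 1935 CPM in the successive stages. Eif3j1 and Eif3j2 are near-identical copies between which reads may have been split or lost in counting, and both were listed at 0 UMIs in every oocyte, so their level is uncertain.

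**Figure D2:**
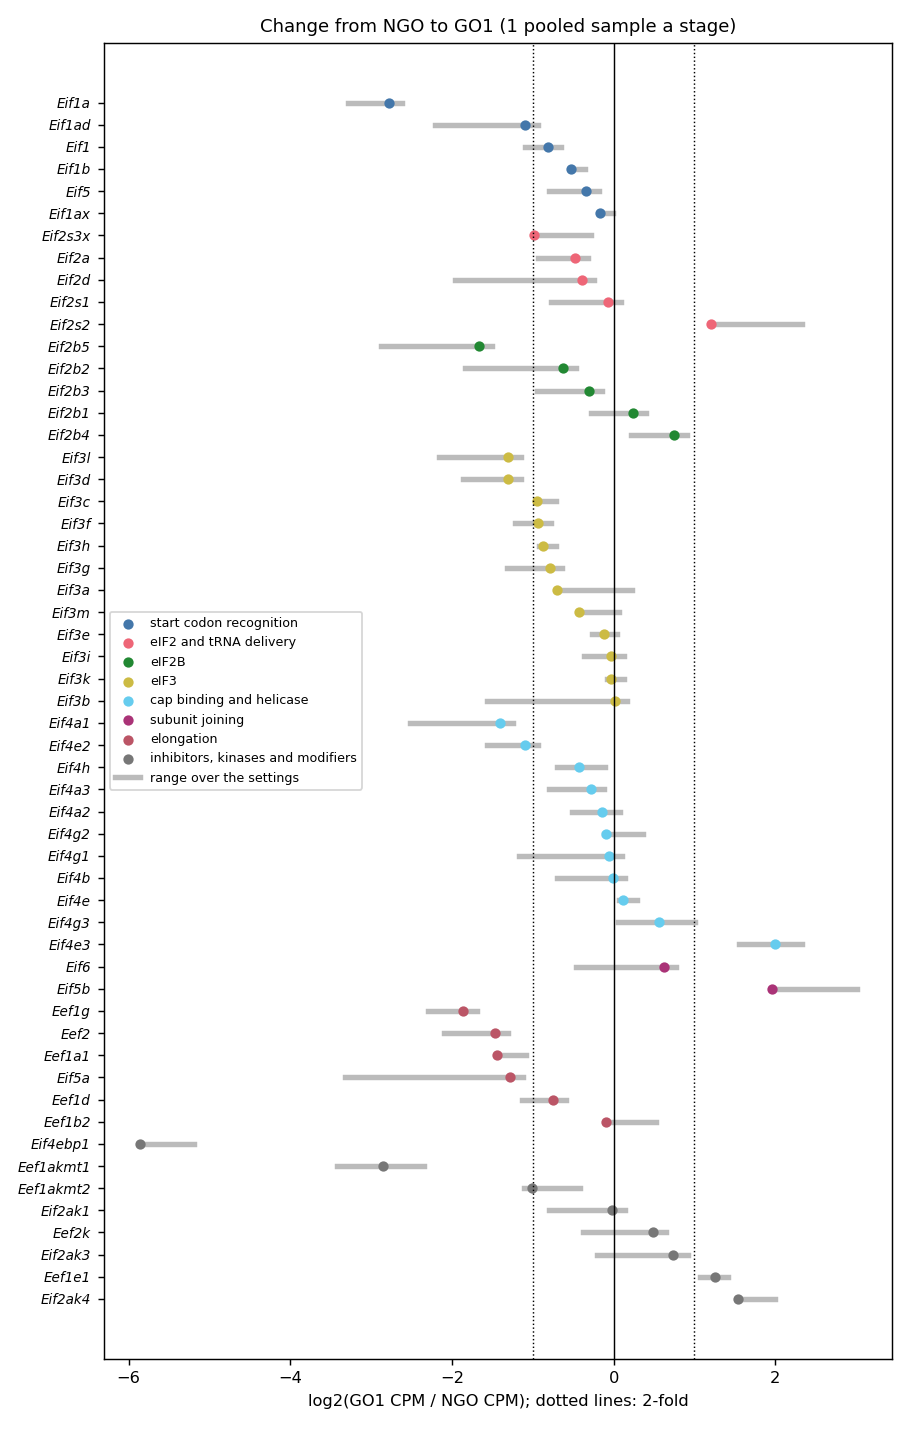
Log2 difference of the 55 genes between the NGO and GO1 stage sums, by role, with grey bars for the range over the other scalings, weightings and depths of the cells and dotted lines at 2-fold. Eif4ebp1 lies apart at the left, Eif4e3 and Eif5b at the right, and the bars of Eif2s2, Eif5b and Eif5a are long on the side away from 0.

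Of the 11 cap-binding and helicase genes, 2 fell and 1 rose from NGO to GO1, against 25.7% and 20.6% of all genes. The cap-binding protein Eif4e itself had 569.7 CPM in NGO, then 616, 682, 610.3 and 559.7 CPM in the successive stages and stayed within 2-fold in all comparisons. Eif4e3, an atypical relative that binds the cap (chr6:99207478-99616791, minus strand of NCBIM37), had 171.6 CPM in NGO, then 685, 846, 815 and 577 CPM in the successive stages. Single oocytes ranged from 96.9 to 275 CPM (median 150.9) in NGO, from 44.9 to 953 CPM (median 525) in GO1, from 578 to 2611 CPM (median 858) in GO2, from 616 to 1155 CPM (median 782) in GO3 and from 199.5 to 897 CPM (median 568) in FGO. Every GO2 and GO3 oocyte lay above every NGO oocyte, whereas GO1 and FGO overlapped with NGO. The share of all genes without overlap was computed for NGO and GO1 only, so the separations from GO2 and GO3, here and below, have no such background. Eif4e3 rose 3.99-fold (interval 3.86 to 4.12) into GO1, and FGO were still 3.36-fold higher (interval 3.26 to 3.47) than NGO. With the 10 deepest cells left out, the levels were 144.3 CPM in NGO and 607 in GO1. The ratio of Eif4e3 to Eif4e UMIs was 0.301 in NGO, then 1.11, 1.24, 1.34 and 1.03 in the successive stages. In the sums, the shift thus came with the first growing stage. Cell by cell, Eif4e3 had more UMIs than Eif4e in 0 of 46 NGO and 20 of 51 GO1 oocytes. In GO2, GO3 and FGO this held for 21 of 26, 41 of 44 and 25 of 56 oocytes. Eif4e2, which binds the cap but not eIF4G and acts in repression, went the other way with 140.2 CPM in NGO, then 65.6, 70.2, 73.4 and 96.9 CPM in the successive stages. It fell 2.14-fold (interval 2.02 to 2.27), a call lost with DESeq2 or TMM factors.

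The helicase gene Eif4a1, which unwinds the leader of the mRNA (chr11:69480438-69485925, minus strand of NCBIM37), had 1201 CPM in NGO, then 452, 474, 462 and 648 CPM in the successive stages. In single oocytes it ranged from 637 to 1573 CPM (median 1124) in NGO and from 44.9 to 664 CPM (median 217) in GO1, which overlapped only at their edges. Eif4a1 fell 2.66-fold (interval 2.60 to 2.71) into GO1. Its level also differed with depth inside GO1, with 218 CPM in the shallower and 466 CPM in the deeper oocytes, and without the 10 deepest cells it was 1161 CPM in NGO, 202 in GO1 and 555 in FGO. The second helicase copy Eif4a2 had 86.4 CPM in NGO, then 78.1, 61.5, 59.01 and 64.6 CPM in the successive stages, within 2-fold throughout. Consequently the ratio of Eif4a1 to Eif4a2 UMIs was 13.9 in NGO, then 5.79, 7.71, 7.83 and 10.03 in the successive stages. The ratio was lowest in GO1 and partly regained by FGO. Eif4a3, the helicase of the exon junction complex, had 193.1 CPM in NGO and 151.8 in FGO. The scaffolds stayed within 2-fold between the stage sums. Eif4g1 had 83.4 CPM in NGO, then 79.99, 73.5, 74.9 and 82.3 CPM in the successive stages. Eif4g3 had 28.5 CPM in NGO, then 42.01, 26.9, 36.9 and 29.7 CPM in the successive stages. Eif4g2, which lacks the eIF4E site, had 125.05 CPM in NGO, then 117.6, 71.3, 104.3 and 119.4 CPM in the successive stages, lowest in GO2. In cells thinned to 20000 UMIs Eif4g1 had 103.3 CPM in NGO and 46.1 in GO1, and Eif4g2 159.8 in GO1 and 65.4 in GO2, both past 2-fold. In cells of 200000 to 1000000 UMIs Eif4g3 had 30.2 CPM in NGO and 60.6 in GO1. The helicase cofactors Eif4b and Eif4h had 119.2 and 159.5 CPM in NGO and 83.7 and 83.9 CPM in GO2. Both were within 2-fold between the stage sums, while by the mean over cells Eif4h had 133.6 CPM in GO1 and 64.3 in GO2. Added up, the 11 genes had 2877 CPM in NGO, 2531 in GO1 and 2556 in FGO.

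The pair of genes that act at the joining of the large subunit were both highest in the growing stages by their sums. Of these, 1 passed the limits, with a rise into GO1 (all genes, 20.6%). Eif5b, the GTPase of subunit joining (chr1:38054855-38112424, plus strand of NCBIM37), had 352 CPM in NGO, then 1362, 1119, 1093 and 819 CPM in the successive stages. Across single cells the level ran from 183.6 to 469.6 CPM (median 354) in NGO, from 814 to 7037 CPM (median 2423) in GO1, from 866 to 5010 CPM (median 1184) in GO2, from 748 to 2459.8 CPM (median 1111) in GO3 and from 450.2 to 2843 CPM (median 783) in FGO. Every GO1, GO2 and GO3 oocyte lay above every NGO oocyte, and the share of all genes with this pattern was computed for GO1 only. Eif5b was the 1 member of 55 whose GO1 cells all lay above the NGO cells, against 0.352% of all genes tested. It rose 3.87-fold (interval 3.79 to 3.97) into GO1 and was 2.33-fold higher (interval 2.28 to 2.38) in FGO than in NGO. Within GO1 the shallower oocytes had 3572 CPM and the deeper 1233 CPM. Leaving out the 10 deepest cells gave 325 CPM in NGO and 2611 in GO1, so the difference was larger without them. Eif6, which keeps the large subunit from joining too early, had 496 CPM in NGO, then 761, 888, 736 and 571 CPM in the successive stages. Its single cells ranged from 257 to 612 CPM (median 489) in NGO and from 40.4 to 1062 CPM (median 353) in GO1. The direction for Eif6 depended on which GO1 cells carried the sum, with 267 CPM in the shallower and 791 CPM in the deeper GO1 oocytes, and 490.1 CPM in NGO against 420.3 in GO1 without the 10 deepest cells.

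**Figure D3:**
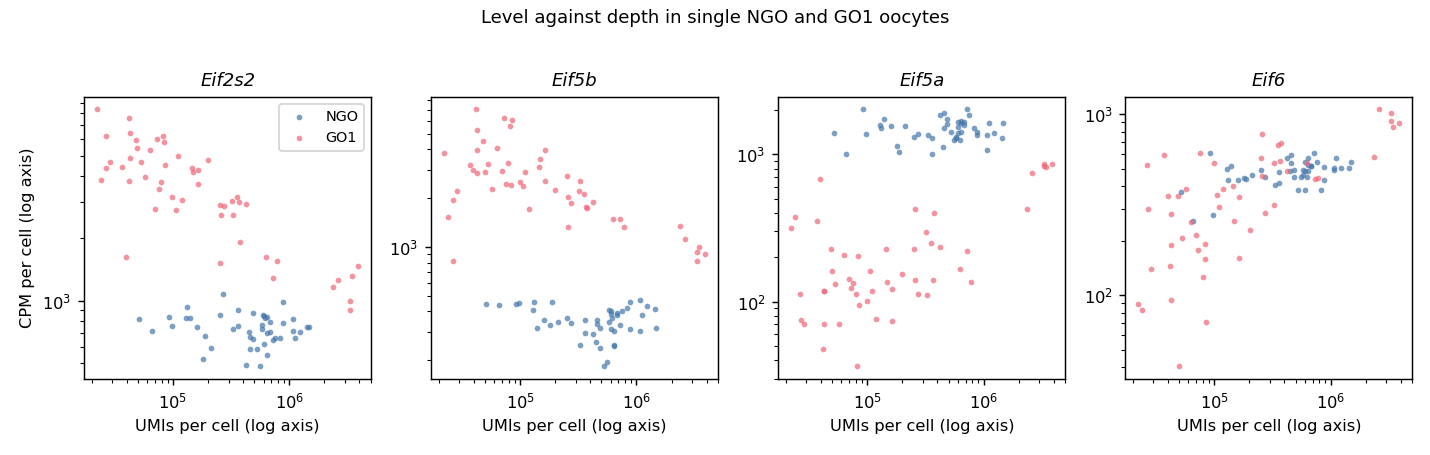
CPM of Eif2s2, Eif5b, Eif5a and Eif6 in single NGO (blue) and GO1 (red) oocytes against the UMIs of the cell, both on log axes. In GO1, Eif2s2 and Eif5b are highest in shallow cells and Eif5a and Eif6 in most of the 6 cells over 2000000 UMIs, while the NGO cells keep to narrower bands.

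The elongation factors were the group with the largest share of members that fell. Of the 8 genes, 6 were at or above 10 CPM. From NGO to GO1, 4 of these fell (all genes, 25.7%) and 0 rose (all genes, 20.6%). The roles were chosen with earlier results of these data known, so this ranking is not read as a trait of the group. The summed level was 3413 CPM in NGO, then 1471, 1427, 1403 and 1669 CPM in the successive stages. Eef1a1, which brings aminoacyl-tRNA to the ribosome (chr9:78326256-78336958, minus strand of NCBIM37), had 1042 CPM in NGO, then 384, 239, 292 and 412 CPM in the successive stages. In single oocytes it ranged from 513 to 2036 CPM (median 1058) in NGO, from 70.03 to 969.6 CPM (median 454) in GO1, from 36.1 to 409 CPM (median 249.7) in GO2, from 179.3 to 579.8 CPM (median 284) in GO3 and from 263 to 1026 CPM (median 439.9) in FGO. All GO2 oocytes lay below all NGO oocytes, a pattern whose share among all genes was not computed. The other stages overlapped with NGO below the NGO median. Eef1a1 fell 2.71-fold (interval 2.65 to 2.77) into GO1 and was 2.53-fold lower (interval 2.49 to 2.57) in FGO than in NGO. With the 10 deepest cells left out it had 1066 CPM in NGO and 431 in GO1. The gene has many processed copies in the genome, so its counts carry some uncertainty from reads shared with them. Eef1a2, the form of muscle and neurons, had 2 UMIs or fewer in every stage.

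The exchange factor that recharges eEF1A has a beta, a delta and a gamma subunit, and these did not move alike. Eef1g had 121.7 CPM in NGO, then 33.6, 31.5, 34.7 and 41.3 CPM in the successive stages, and single cells ranged from 39.02 to 239.6 CPM (median 123.6) in NGO and from 0 to 415 CPM (median 25.2) in GO1. It fell 3.62-fold (interval 3.36 to 3.91) and was 2.95-fold lower (interval 2.80 to 3.11) in FGO than in NGO. Eef1d had 428 CPM in NGO, then 255, 245, 229.7 and 239 CPM in the successive stages and Eef1b2 118.9 CPM in NGO, then 111.02, 75.03, 93.2 and 86.9 CPM in the successive stages, both within 2-fold. Without the 10 deepest cells, Eef1d had 434 and 198.1 CPM and Eef1b2 128.01 and 170.4 CPM in NGO and GO1. The gamma subunit was thus the member of this trio that passed the limits in the stage sums. Eef2, the translocase (chr10:80639376-80645252, plus strand of NCBIM37), had 216 CPM in NGO, then 78.3, 61.2, 66.02 and 80.6 CPM in the successive stages. It ranged from 110.4 to 636 CPM (median 221) in single NGO oocytes and from 0 to 227 CPM (median 56.3) in GO1, with most GO1 cells below the NGO range. It fell 2.76-fold (interval 2.63 to 2.91) into GO1 and was 2.69-fold lower (interval 2.59 to 2.79) in FGO than in NGO. Eif5a, the hypusine-bearing factor that helps the ribosome over difficult peptide bonds (chr11:69730216-69735460, minus strand of NCBIM37), had 1477 CPM in NGO, then 606, 773, 686 and 806 CPM in the successive stages. Among single cells it ranged from 999 to 2018 CPM (median 1424) in NGO and from 36.4 to 856 CPM (median 142.5) in GO1, so all GO1 oocytes lay below all NGO oocytes. Eif5a and Eif4ebp1 were the 2 members of 55 with this pattern, against 0.915% of all genes tested. Eif5a fell 2.44-fold (interval 2.39 to 2.48) into GO1, and its FGO level was within 2-fold of NGO in the stage sums but not by the mean over cells (1470 and 693 CPM). The shallower GO1 oocytes had 153.02 CPM and the deeper 633 CPM, and without the 10 deepest cells the levels were 1505 CPM in NGO and 192.2 in GO1. Eif5a2, its copy, stayed under 10 CPM, with 8.61 CPM in NGO, then 2.58, 2.20, 1.95 and 3.02 CPM in the successive stages.

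**Figure D4:**
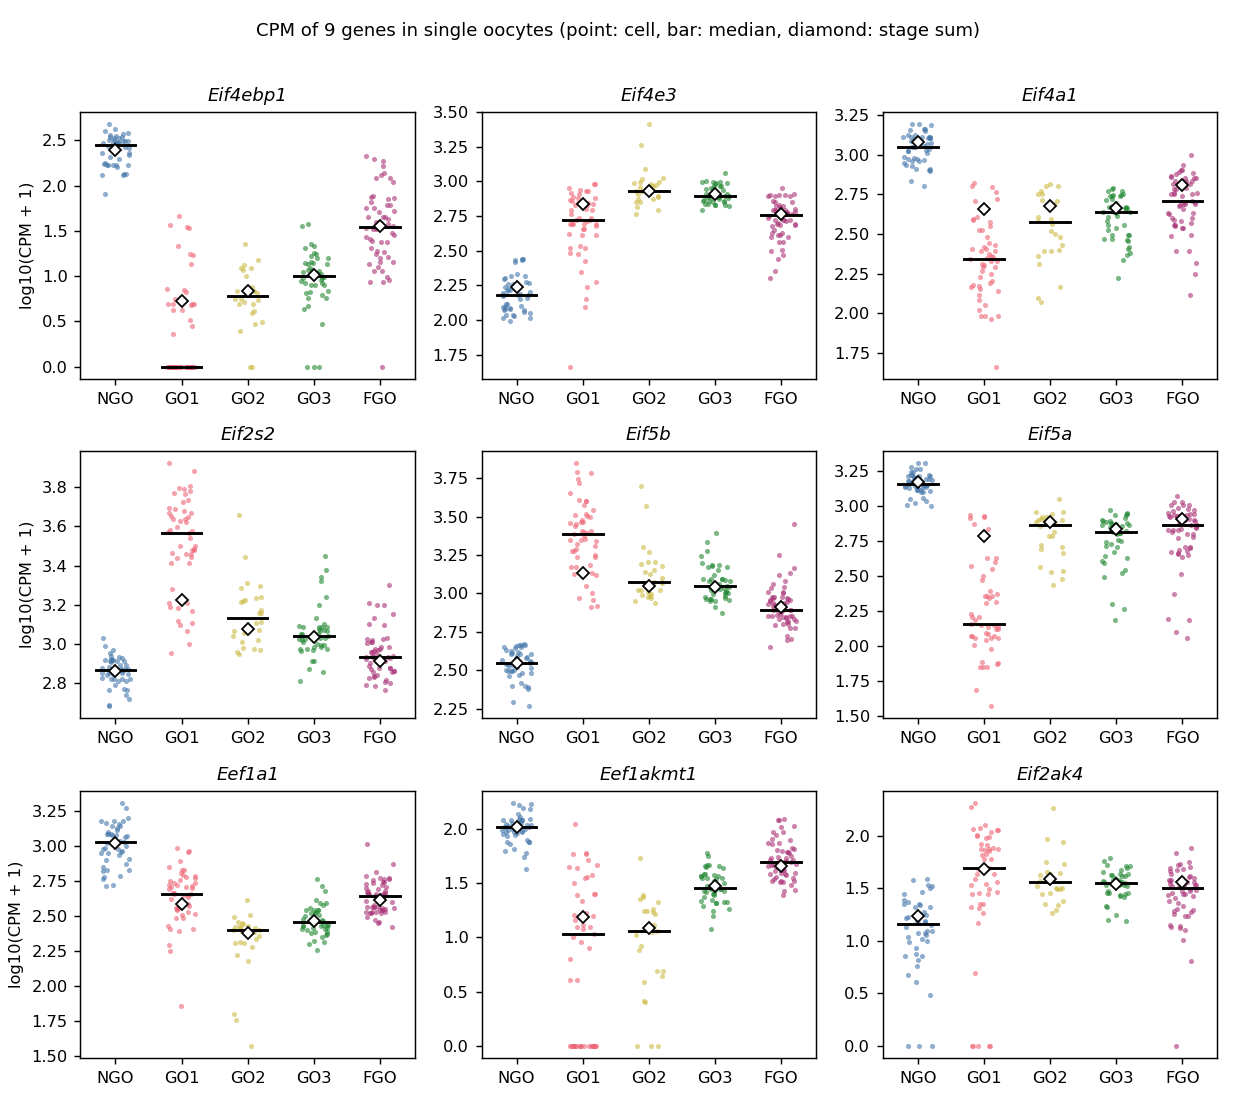
CPM of 9 translation factor genes in the single oocytes of the 5 stages, as log10(CPM + 1), by stage (points, cells; bars, median over cells; diamonds, stage sum). NGO and GO1 cells are separate for Eif4ebp1, Eif5b and Eif5a, Eif4ebp1 is regained in part in FGO, and the stage sum of GO1 lies away from the median cell for Eif2s2, Eif5b, Eif5a and Eif4a1.

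Inhibitors, kinases and modifiers of the factors held the member with the largest difference. Eif4ebp1, the 4E-binding protein through which mTORC1 controls cap-dependent initiation (chr8:28370799-28386128, plus strand of NCBIM37), had 249 CPM in NGO, then 4.30, 5.93, 9.19 and 34.6 CPM in the successive stages. Single oocytes ranged from 79.7 to 479.9 CPM (median 278) in NGO, from 0 to 44.9 CPM (median 0) in GO1, from 0 to 21.5 CPM (median 5.03) in GO2, from 0 to 36.7 CPM (median 9.11) in GO3 and from 0 to 213 CPM (median 33.6) in FGO. Every NGO oocyte lay above every oocyte of the 3 growing stages, and 29 of 51 GO1 oocytes had no UMI of the gene. For GO2 and GO3 the share of all genes with this pattern was not computed. Eif4ebp1 fell 57.8-fold (interval 48.1 to 70.2) into GO1, the 17th largest fall among 8527 genes tested. From GO3 to FGO it rose 3.76-fold (interval 3.40 to 4.17), the one member that did so, and FGO were still 7.18-fold lower (interval 6.84 to 7.54) than NGO. Within GO1 the level was alike at both depths, and the shallower oocytes had 4.29 CPM and the deeper 4.32 CPM. Within FGO it was not, with 85.9 CPM in the shallower oocytes and 25.8 CPM in the deeper, and in cells of 200000 to 1000000 UMIs the level was 263 CPM in NGO and 72.8 in FGO. Without the 10 deepest cells the levels were 267 CPM in NGO, 4.58 in GO1 and 48.8 in FGO. The ratio of Eif4e to Eif4ebp1 UMIs was 2.29 in NGO, then 143.4, 115.1, 66.4 and 16.2 in the successive stages. That ratio followed Eif4ebp1, since Eif4e was nearly level. The other 4E-binding proteins, Eif4ebp2 and Eif4ebp3, stayed under 10 CPM, at 5.64 and 2.90 CPM in NGO and 2.84 and 4.37 CPM in GO1.

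Among the 4 kinases of eIF2, 1 passed the limits, with a rise into GO1 (all genes, 20.6%). Eif2ak4 (GCN2), the sensor of uncharged tRNA, had 16.4 CPM in NGO, then 47.6, 38.1, 33.96 and 35.02 CPM in the successive stages. Cell by cell it ranged from 0 to 38.3 CPM (median 13.4) in NGO and from 0 to 206 CPM (median 48.9) in GO1, with overlap in the lower part. It rose 2.90-fold (interval 2.59 to 3.25) into GO1 and was 2.13-fold higher (interval 1.92 to 2.37) in FGO than in NGO, the latter not in cells of 200000 to 1000000 UMIs (16.5 and 25.6 CPM). Eif2ak1 (HRI), the haem-regulated kinase, had 49.8 CPM in NGO, then 49.2, 50.7, 50.98 and 54.98 CPM in the successive stages with a ratio of highest to lowest stage sum of 1.12. Within GO1, however, the shallower oocytes had 20.7 CPM and the deeper 50.8, and without the 10 deepest cells it had 32.5 CPM in GO1 and 50.95 in GO2. In cells thinned to 20000 UMIs the log2 difference from GO1 to GO2 was 1.45, past the limits. Eif2ak3 (PERK), the kinase of the endoplasmic reticulum, had 11.4 CPM in NGO, then 18.99, 11.7, 12.2 and 13.3 CPM in the successive stages, within 2-fold. Eif2ak2 (PKR), which senses double-stranded RNA, stayed under 10 CPM with 0.476 CPM in NGO, then 4.71, 4.80, 4.72 and 2.18 CPM in the successive stages. Eef2k, which phosphorylates and thereby inhibits eEF2, had 110.3 CPM in NGO, then 154.3, 116.2, 107.6 and 92.3 CPM in the successive stages. It stayed within 2-fold between the stage sums, while its substrate fell. The shallower GO1 oocytes had 89.4 CPM of Eef2k and the deeper 158.3, and in FGO these were 47.8 and 99.9 CPM. Without the 10 deepest cells Eef2k had 103.3 CPM in NGO and 79.3 in GO1, so the direction into GO1 was reversed. In cells of 200000 to 1000000 UMIs it had 104.4 CPM in NGO and 49.01 in FGO, past 2-fold.

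Of the enzymes that methylate elongation factors, Eef1akmt1, which acts on eEF1A, had 103.5 CPM in NGO, then 14.3, 11.2, 28.9 and 44.2 CPM in the successive stages. Single oocytes ranged from 41.1 to 172.6 CPM (median 103.1) in NGO, from 0 to 109.4 CPM (median 9.62) in GO1, from 10.96 to 59.3 CPM (median 27.4) in GO3 and from 23.7 to 121.3 CPM (median 48.9) in FGO. NGO and GO1 overlapped, but the median GO1 cell lay below the lowest NGO cell. Eef1akmt1 fell 7.23-fold (interval 6.49 to 8.07) into GO1, rose 2.58-fold (interval 2.27 to 2.94) from GO2 to GO3 and was 2.34-fold lower (interval 2.22 to 2.47) in FGO than in NGO. The difference between NGO and FGO was under 2-fold by the mean over cells (102.96 and 55.4 CPM), in cells of 200000 to 1000000 UMIs (106.6 and 59.002) and in cells thinned to 20000 UMIs (94.6 and 63.4). Like Eif1a, in the stage sums it was lowest in GO2 and higher again in GO3 and FGO. Eef1akmt2 had 15.5 CPM in NGO, then 7.70, 6.37, 8.33 and 9.78 CPM in the successive stages and fell 2.01-fold (interval 1.69 to 2.39), a value at the limit that was lost under both other scalings and without the 10 deepest cells (17.2 and 9.93 CPM). Eef2kmt, the methyltransferase of eEF2, stayed under 10 CPM with 4.76 CPM in NGO and 1.83 in FGO. Eef1e1, despite its name a part of the multi-tRNA synthetase complex, had 103.7 CPM in NGO, then 247, 248, 238 and 207 CPM in the successive stages and rose 2.38-fold (interval 2.27 to 2.49). Cells ranged from 55.2 to 249.5 CPM (median 102.8) in NGO and from 25.2 to 516 CPM (median 225) in GO1, which overlapped.

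Genes that work with these factors but are not named Eif or Eef were followed as a list of 36. Their levels come from the full stage sums, and none was computed without the 10 deepest cells. From NGO to GO1, 5 of the 30 tested rose and 8 fell, against 20.6% and 25.7% of all genes, with a median log2 difference of -0.22 beside -0.15 for all genes. The cytoplasmic poly(A)-binding protein gene Pabpc4 and the listed regulators of such proteins moved in opposite directions. Pabpc4 fell from 635 to 157.7 CPM, while Pabpc1, the other poly(A)-binding protein gene of the list, had 50.6 and 27.9 CPM, within 2-fold. Paip1 rose from 179.7 to 655 CPM, Paip2 from 401 to 1010 and Paip2b from 138.2 to 331. Paip1 is known to stimulate translation and Paip2 and Paip2b to repress it, so genes of opposite roles rose together. Gspt2, a release factor, rose from 35.8 to 123.2 CPM, and Ppp1r15b, a subunit of the phosphatase of eIF2, from 8.21 to 21.3. Abce1, which splits ribosomes after termination, fell from 30.1 to 9.49 CPM, and Denr, a factor of recycling and reinitiation, from 232 to 98.3. Dohh, the second enzyme of hypusine formation on eIF5A, fell from 80.4 to 22.5 CPM, in the same step as Eif5a. In the mTORC1 arm, Akt1s1 fell from 154.3 to 63.7 CPM and Rps6kb2 from 12.1 to 2.88, while Mtor had 24.5 and 21.2 CPM and Rps6kb1 87.1 and 91.95 CPM, within 2-fold. The mitochondrial factors Mtif2 and Tufm fell from 45.8 to 13.8 and from 54.4 to 22.7 CPM. From GO1 to GO2, 0 of 26 genes of the list passed the limits, from GO2 to GO3 0 of 27, and from GO3 to FGO 1 of 28, namely Mtif2, which rose from 10.2 to 24.6 CPM.

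The fall or rise from NGO to GO1 of the remaining members was also seen with the 10 deepest cells of each stage left out. In such sums of NGO and GO1, Eif1ad had 46.8 and 17.6 CPM, Eif2b5 27.9 and 6.30, Eif3d 199.9 and 56.2, Eif3l 287 and 69.5, and Eif4e2 146.96 and 55.4. Eef1g had 127.3 and 27.5 CPM, Eef2 246 and 57.3, and Eef1akmt1 106.6 and 16.6. Eif2ak4 had 16.3 and 51.003 CPM and Eef1e1 107.8 and 264. The step from GO1 to GO2 read differently when the deepest cells were left out. Then 7 of 51 members passed the limits in place of 1, 4 that rose (all genes, 9.43%) and 3 that fell (all genes, 8.24%). Eif5a had 192.2 CPM in GO1 and 639 in GO2, Eif6 420.3 and 856, Eif2d 29.8 and 72.6, and Eif3b 14.7 and 35.6. Eif2s2 had 3466 CPM in GO1 and 1521 in GO2, Eef1b2 170.4 and 78.7, and Eif2s3x 25.2 and 10.01. Except for Eif2s3x and Eef1b2, these genes also differed at least 2-fold between shallower and deeper GO1 oocytes. Such a difference was seen for 8 members higher in the deeper oocytes and 3 higher in the shallower among 53 in GO1, for 0 in NGO, GO2 and GO3, and for 3 and 1 members in FGO. The share of all genes with such a difference was not computed, so these counts are not read as a trait of the members. The part of depth in these values was not tested.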

How the data were processed

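Single oocytes of 5 growth stages were measured by single-cell RNA-seq. After assigning reads to cells by barcode and trimming, the authors mapped them to the mm9 transcriptome (Tophat), collapsed duplicates by UMI and deposited raw counts of UMIs per gene and cell for the cells that passed their filter. The cell names give the stage but not the library, so the cells of a stage were summed as 1 sample, and no test between stages was possible. A barcode list that names no cell was not used, and the iscCOOL-seq samples were not analysed here. All columns of the table belonged to a stage. No doublet caller was run because oocytes were picked by hand.

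UMIs were summed per stage and divided by the stage total (CPM). A gene counted as changed at 2-fold or more where the larger level was 10 CPM or above. Intervals are at 95% and cover counting error only, as does the floor of 3 UMIs per stage sum. Members, roles and gene lists were chosen with earlier results of these data known. The genes named with values are the members past those limits in any comparison, the core subunits, the 4E-binding proteins, the kinases and the paralog pairs. Positions come from GENCODE vM1 (NCBIM37, the build of mm9), which matched 58 of 64 members. To look at depth, the cells of a stage were ranked by UMIs and summed as a shallower and a deeper set. The alternatives were size factors of DESeq2 1.42.0, TMM factors of edgeR 4.0.16 (both on stage sums, for scaling alone), the mean over cells, leaving out 10 cells of each stage, the deepest ones, cells thinned to 20000 UMIs, a limit of 1.5-fold, no filter on low counts, and 50 CPM. Python 3.11.15 with pandas 2.3.3, numpy 2.4.6 and scipy 1.17.1 and R 4.3.3 were used. The code of the calls was run on simulated stage sums with counting error only and planted changes larger than the limit. These had no spread between cells, so they cannot show how far a call rests on a few deep cells.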

Additional observations from a re-analysis of the deposited data

How the results depend on the processing

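The number of members past the limits from NGO to GO1 was 19, and it lay between 14 and 27 under every alternative that kept the 2-fold limit (16 with DESeq2 or TMM factors, 24 without the 10 deepest cells, 27 with cells thinned to 20000 UMIs, 14 at 50 CPM). At 1.5-fold it was 31. From GO1 to GO2 it was 1, and it was 0 with DESeq2 factors, 0 with TMM factors and 0 at 50 CPM, 2 without a filter on low counts, 5 at 1.5-fold, 7 without the 10 deepest cells, 8 by the mean over cells and 10 with thinned cells. From GO2 to GO3 (2) it was 0 at 50 CPM. From GO3 to FGO (1) it was 0 at 50 CPM, 2 without a filter, 3 at 1.5-fold and 3 with thinned cells. From NGO to FGO (11) it was 24 at 1.5-fold. The shares of all genes past the limits moved too. From NGO to GO1, 20.6% rose and 25.7% fell, with 21.6% and 37.6% without the 10 deepest cells. With thinned cells these were 22.9% and 34.8%. From GO1 to GO2, 0.109% rose and 3.03% fell, with 9.43% and 8.24% without the 10 deepest cells. With thinned cells these were 8.45% and 15.8%. Another 2 settings were added after seeing the data, the median over cells (25 members from NGO to GO1 and 10 from GO1 to GO2) and cells of 200000 to 1000000 UMIs (24 and 6). The cause of these shifts was not tested. All 19 members remained past the limits by the mean over cells, and of the 11 from NGO to FGO, 10 remained with DESeq2 factors and 9 with TMM factors. From NGO to GO1, DESeq2 factors moved the median log2 difference of all genes by 0.10 and TMM factors by 0.16, and from GO1 to GO2 by 0.19 and 0.17. The members with a difference below 0 from NGO to GO1 were 42 of 55, and 34 and 32 with those factors. The share of all genes below 0 was not computed with those factors. No call changed direction under any alternative. The depth limits what can be said of the 9 members under 10 CPM. No paired analysis was possible because the cells could not be assigned to libraries and no result came from a test.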
